A study of Mus musculus with 10 samples.

Results

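The MHC class II genes encode the proteins with which a cell shows peptides from engulfed material to CD4+ T cells. The set described here was chosen by symbol and holds 10 genes of the 55291 in the table of estimated counts. These are the chain genes H2-Aa, H2-Ab1 and H2-Eb1, the invariant chain gene Cd74, the peptide loading genes H2-DMa, H2-DMb1 and H2-DMb2, the genes H2-Oa and H2-Ob whose products hold back loading, and Ciita. All 10 passed the filter on low counts and are among the 17015 genes tested.

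Livers of 10 female mice were profiled by bulk RNA-seq. Every mouse was 16 to 20 weeks old and carried a Cas9 gene behind a Lox-Stop-Lox cassette. Each received an AAV8 virus with a guide RNA and a Cre gene under the TBG promoter. That promoter is used to direct Cre, and so Cas9, to hepatocytes. In the other cells of the liver the Cas9 gene is meant to stay silent. In 2 NTC-Veh mice the guide was a non-targeting control and the injection was olive oil, and 2 sgBap1-Veh mice had the guide against Bap1 and olive oil. The 3 NTC-CCl4 and 3 sgBap1-CCl4 mice had the same guides and carbon tetrachloride, 1 part in 9 parts of olive oil at 10 µL per g. The injection followed 10 days after the virus and tissue was taken 48 hours later. The total estimated count of a liver was 33047904 to 52199904. Levels are in CPM, counts scaled to the library total and by TMM, and in the smallest library 3 counts make 0.112 CPM. The libraries are from separate mice, and p-values measure the spread between these livers.

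In an endosome, the alpha and beta chains pair around the invariant chain Cd74, which fills the groove until proteases cut it down. The DM protein then exchanges the remaining piece for a peptide, and the DO protein holds DM back, mainly in B cells. Transcription of the chain, invariant chain and DM genes is switched on by Ciita, which binds no DNA itself but joins the RFX, NF-Y and CREB factors on the X and Y boxes of their promoters. In the liver, class II is carried mostly by dendritic cells, B cells and macrophages, among them the resident Kupffer cells.

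The targeted gene was examined first. Bap1 was at 34.8 and 34.8 CPM in the NTC-Veh livers and 17.5 and 19.5 CPM in the sgBap1-Veh livers. It was at 30.1, 31.5 and 29.5 CPM in NTC-CCl4 and at 17, 21.8 and 19.1 CPM in sgBap1-CCl4. Every sgBap1 liver lay below every NTC liver, as the labels say, and part of the Bap1 RNA was left in each. Between genotypes, its log2 difference under olive oil was -0.91 (SE 0.12, adjusted p = 0.0208), and under CCl4 it came to -0.65 (SE 0.10, adjusted p = 0.0295). The vehicle call held in 12 of 18 alternative fits (adjusted p from 2.89e-07 to 0.120) and was lost without any single vehicle liver. The CCl4 call held in 9 of 18 (adjusted p from 5.73e-06 to 0.147) and was lost without either NTC-Veh liver, any NTC-CCl4 liver or sgBap1-CCl4 replicate 1. The sign was negative in every fit.

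One library stands apart. The liver labelled sgBap1-CCl4 replicate 2 held fat cell genes that the others lack: Cfd was at 144 CPM there and at 0 counts in the other 9 livers, Adipoq was at 36.4 CPM against at most 0.0425, and Plin1 was at 34.5 CPM against at most 0.0188. The summed level of the 6 fat cell markers, led by Cfd, was 283 CPM in this liver and 11 to 35.1 CPM in the others. The part of this tissue in the values of that liver was not tested. The tests were repeated without it, and calls of the set and of the lists below that came out differently are named.

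H2-Aa, which encodes the alpha chain of the A molecule, was at 24.6 and 25 CPM in the NTC-Veh livers and at 69.9 and 64.1 CPM in the sgBap1-Veh livers. With CCl4 it was at 44.6, 46.1 and 68.6 CPM in the NTC livers and at 35.8, 50.7 and 43.0 CPM in the sgBap1 livers. The NTC-Veh livers were the lowest of all and close to each other, the sgBap1-Veh livers lay above every sgBap1-CCl4 liver, and the CCl4 groups overlapped. H2-Ab1, its beta chain partner, was at 21.2 and 21.3 CPM in NTC-Veh, at 61.2 and 50.2 in sgBap1-Veh, 34.4, 37.3 and 48.0 in NTC-CCl4, and 28.7, 41.1 and 34.0 in sgBap1-CCl4. H2-Eb1, the beta chain of the E molecule, was at 19.9 and 20 CPM in NTC-Veh, at 52.1 and 49.9 in sgBap1-Veh, 31.9, 34.6 and 46.4 in NTC-CCl4, and 26.9, 40.3 and 33.2 in sgBap1-CCl4. Both beta chain genes kept that order of groups, with NTC-Veh lowest and sgBap1-Veh highest. The alpha chain of E, H2-Ea, had 2 counts in 1 NTC-CCl4 liver and 0 in the other 9, so that no fold change is given for it.

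The ratio of H2-Aa to H2-Ab1 counts was 1.14 to 1.43 over the 10 livers, and that of H2-Eb1 to H2-Ab1 was 0.851 to 0.996. The proportions of the chain genes to each other thus varied less over the livers than their levels did. Per kb of merged exons, the mean level of the NTC-Veh livers was 6.53 CPM for H2-Aa, 8.27 for H2-Ab1 and 10.2 for H2-Eb1.

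Cd74 was the most abundant member in every group, at 38.2 CPM per kb in NTC-Veh, at 97.4 in sgBap1-Veh, 85 in NTC-CCl4 and 70.7 in sgBap1-CCl4. In single livers its level was 67.3 and 61.1 CPM in NTC-Veh, at 177 and 150 in sgBap1-Veh, 123, 123 and 182 in NTC-CCl4, and 98.3, 138 and 120 in sgBap1-CCl4. Its NTC-Veh livers were again the lowest, and its highest value was that of an NTC-CCl4 liver. There were 2.87 to 3.79 Cd74 counts for each H2-Ab1 count, with the vehicle livers at 2.87 to 3.18 and the CCl4 livers at 3.29 to 3.79, so that the treatments did not overlap in this ratio. The ratio of H2-DMa to H2-Ab1 counts did not overlap either, at 0.144 to 0.174 with vehicle and 0.193 to 0.234 with CCl4. These differences were described and not tested.

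**Figure D1:**
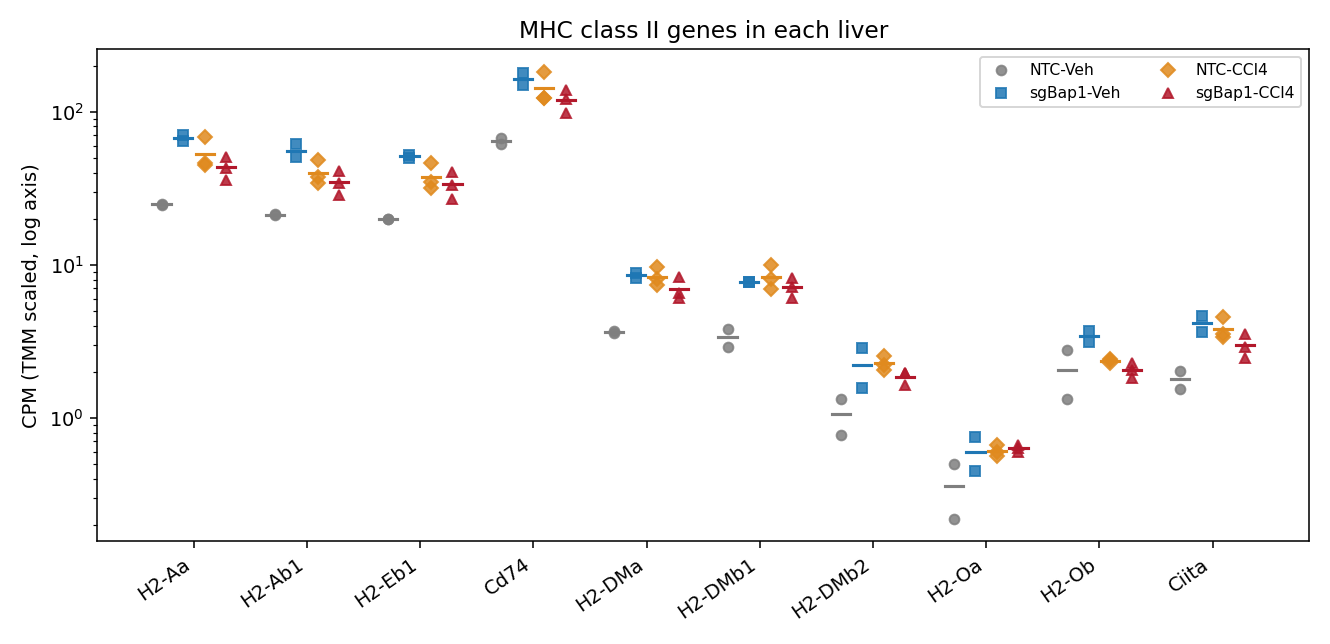
CPM of the 10 MHC class II genes in each liver, on a log axis, scaled by TMM. Points are livers and short lines are group means (2 livers in each vehicle group, 3 in each CCl4 group). For H2-Aa, the NTC-Veh livers lie at 24.6 and 25 CPM and the other 8 livers at 35.8 to 69.9.

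Of the members, 8 lie in the major histocompatibility complex on chromosome 17, within 224 kb between bases 34092340 and 34316674 of GRCm38 in GENCODE vM21. Cd74 and Ciita are elsewhere. RefSeq promoters, of which the 250 bases before the start were used, were matched for 7 of the 10 members, with 8 promoters in all. H2-Ab1, Cd74 and Ciita are named only. Both strands were searched for the Y box letters ATTGG, the X box half-site GCAAC, and for GCAAC followed on the same strand by ATTGG with 15 to 40 bases between. None of these motifs overlaps another in the promoters shown. The promoters below are shown because the levels of these genes followed each other over the livers or, for H2-Ob, did so least. They are given 5' to 3' on the strand of the gene, in build GRCm38.p6, with ATTGG and GCAAC on either strand in capitals. H2-Aa is on the minus strand at chr17:34287824-34288073, and H2-Eb1, H2-DMb1 and H2-Ob are on the plus strand at chr17:34305617-34305866, chr17:34152941-34153190 and chr17:34238655-34238904.
H2-Aa: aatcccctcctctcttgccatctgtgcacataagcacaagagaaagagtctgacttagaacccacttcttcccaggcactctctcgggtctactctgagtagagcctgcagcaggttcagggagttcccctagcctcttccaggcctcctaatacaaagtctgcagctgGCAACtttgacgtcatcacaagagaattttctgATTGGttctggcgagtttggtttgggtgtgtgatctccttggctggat
H2-Eb1: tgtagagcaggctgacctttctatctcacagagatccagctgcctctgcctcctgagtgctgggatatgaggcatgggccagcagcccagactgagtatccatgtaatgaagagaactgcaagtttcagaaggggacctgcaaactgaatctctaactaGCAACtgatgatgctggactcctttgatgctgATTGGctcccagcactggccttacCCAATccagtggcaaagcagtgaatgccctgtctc
H2-DMb1: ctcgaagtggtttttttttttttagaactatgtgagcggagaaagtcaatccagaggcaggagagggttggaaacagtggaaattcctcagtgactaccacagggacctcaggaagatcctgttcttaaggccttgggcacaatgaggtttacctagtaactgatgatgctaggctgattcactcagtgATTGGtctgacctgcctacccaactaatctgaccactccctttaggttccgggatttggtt
H2-Ob: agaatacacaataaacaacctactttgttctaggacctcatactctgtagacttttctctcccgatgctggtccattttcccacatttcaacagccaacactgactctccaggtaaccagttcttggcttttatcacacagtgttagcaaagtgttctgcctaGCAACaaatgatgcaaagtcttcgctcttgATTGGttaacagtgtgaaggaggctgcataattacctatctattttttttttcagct

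The letters GCAAC and then ATTGG stood in this order in the promoters of H2-Aa, H2-Eb1, H2-Oa and H2-Ob, with 28, 27, 28 and 25 bases between them. Over all 32851 promoters of the table, 1.04% held this arrangement, 33.8% held ATTGG and 29.9% held GCAAC alone or with it. H2-DMb1 and H2-DMb2 held ATTGG without GCAAC. Only exact letters were searched, so an X box that differs from GCAAC by a single letter would be missed. The arrangement was in neither promoter of H2-DMa, where the first held GCAAC on the minus strand and the second held ATTGG, and the bases past the start of the second were not found in the GENCODE vM21 transcripts of the gene. The match is one of letters, and H2-Ob, which has the arrangement, is also the member whose levels followed the chain genes least.

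In vehicle-treated livers, the chain genes, Cd74 and H2-DMa were higher with the guide against Bap1, and the other members did not pass the test. In sgBap1-Veh livers 5 of the 10 members were higher than in NTC-Veh livers and 0 were lower, where 0.276% of all tested genes were higher and 0.129% were lower. On the log2 scale H2-Aa rose by 1.43 (SE 0.22, adjusted p = 0.0347), H2-Ab1 by 1.39 (SE 0.19, adjusted p = 0.0283) and H2-Eb1 by 1.36 (SE 0.20, adjusted p = 0.0347). Cd74 rose by 1.35 (SE 0.21, adjusted p = 0.0385) and H2-DMa by 1.23 (SE 0.19, adjusted p = 0.0347). All tests are edgeR's quasi-likelihood test with Benjamini-Hochberg adjustment over all tested genes. The median log2 fold change of the 10 members was 1.23, against 0.02 over all tested genes.

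These calls rest on few livers and on the settings. Without any single one of the 4 vehicle livers, or without NTC-CCl4 replicate 2, 0 members passed, and without NTC-CCl4 replicate 1 or sgBap1-CCl4 replicate 3 it was 3 and 1. Without sgBap1-CCl4 replicate 2, the liver with fat cell genes, it was 6, with H2-DMb1. Scaling by library size alone gave 0, and DESeq2's Wald test gave 7. Every member had a positive log2 fold change in each of these fits.

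H2-DMa, the alpha chain of DM, was at 3.57 and 3.71 CPM in NTC-Veh, at 8.83 and 8.23 in sgBap1-Veh, 8.04, 7.42 and 9.63 in NTC-CCl4, and 6.08, 8.30 and 6.57 in sgBap1-CCl4. H2-DMb1, a beta chain, was at 3.78 and 2.91 CPM in NTC-Veh, at 7.67 and 7.67 in sgBap1-Veh, 6.91, 8.0 and 10.0 in NTC-CCl4, and 6.10, 8.23 and 7.16 in sgBap1-CCl4. For both, NTC-Veh was the lowest group and the other groups overlapped. The vehicle difference of H2-DMb1, 1.20 (SE 0.22, adjusted p = 0.0526), did not pass the threshold, and over the alternatives its adjusted p was 0.000247 to 0.295.

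H2-DMb2, the other beta chain gene, ranged from 0.776 to 2.85 CPM. Of all its 50-base stretches, 21.2% also occur in H2-DMb1, and 22.7% of those of H2-DMb1 occur in H2-DMb2, so that Salmon divides some reads between them and each value is uncertain. H2-DMb2 took 16.5% to 27.1% of the counts of the pair. Summed into a single row, which was chosen after seeing the data, the pair had a vehicle log2 fold change of 1.17 (SE 0.20, adjusted p = 0.0480). H2-DMa shares 8.43% of such stretches with Brd2 and H2-Oa 15.5% with BC051537, which may make these counts less certain too. Both strands were searched and the strand of a match was not recorded. With a stranded kit, a match on the opposite strand need not affect the counts.

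The inhibitor genes were low. H2-Oa, the alpha chain of DO, had 8 to 39 counts in a liver, or 0.218 to 0.754 CPM. Its vehicle difference was 0.79 (SE 0.43, adjusted p = 0.515), and the vehicle groups overlapped. H2-Ob, the beta chain, was at 2.78 and 1.33 CPM in NTC-Veh, at 3.69 and 3.11 in sgBap1-Veh, 2.43, 2.27 and 2.39 in NTC-CCl4, and 2.28, 2.05 and 1.83 in sgBap1-CCl4. The NTC-Veh livers bracketed all 6 CCl4 livers, and the vehicle difference was 0.73 (SE 0.29, adjusted p = 0.344).

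Ciita, the switch of the set, was at 1.55 and 2.02 CPM in NTC-Veh, at 4.66 and 3.63 in sgBap1-Veh, 3.52, 3.36 and 4.55 in NTC-CCl4, and 2.89, 3.54 and 2.47 in sgBap1-CCl4. The order of its groups was that of the chain genes. Its vehicle difference, 1.22 (SE 0.26, adjusted p = 0.0817), did not pass, on 57 to 207 counts in a liver.

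Treatment with CCl4 asks how the set responds to acute injury. In NTC mice, 8 of the 10 members were higher after CCl4 and 0 were lower, beside 27.4% of all tested genes that were higher and 26.6% that were lower. H2-DMb1 rose by 1.31 (SE 0.20, adjusted p = 0.000378), H2-DMa by 1.20 (SE 0.18, adjusted p = 0.000253) and H2-DMb2 by 1.09 (SE 0.31, adjusted p = 0.0121). Cd74 rose by 1.15 (SE 0.20, adjusted p = 0.000828), H2-Aa by 1.10 (SE 0.20, adjusted p = 0.00116), Ciita by 1.09 (SE 0.24, adjusted p = 0.00334), H2-Eb1 by 0.92 (SE 0.19, adjusted p = 0.00233) and H2-Ab1 by 0.91 (SE 0.18, adjusted p = 0.00177). H2-Oa, at 0.76 (SE 0.38, adjusted p = 0.115), and H2-Ob, at 0.20 (SE 0.27, adjusted p = 0.557), did not pass. The median of the members was 1.09, against 0.03 over all tested genes. The count stayed at 8 or 9 without any single liver.

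In sgBap1 mice, fewer members passed. Of the 10 members, 4 were lower in sgBap1-CCl4 than in sgBap1-Veh and 0 were higher, beside 28.0% of all tested genes that were lower and 29.0% that were higher, so that the share of members lower is not far from that of all genes. H2-Ob fell by 0.73 (SE 0.26, adjusted p = 0.0333), H2-Ab1 by 0.69 (SE 0.17, adjusted p = 0.00629), H2-Aa by 0.63 (SE 0.19, adjusted p = 0.0167) and H2-Eb1 by 0.61 (SE 0.18, adjusted p = 0.0153) on the log2 scale. Cd74 was at -0.46 (SE 0.19, adjusted p = 0.0617) and Ciita at -0.48 (SE 0.22, adjusted p = 0.0833), while H2-DMa, H2-DMb1, H2-DMb2 and H2-Oa lay between -0.29 and 0.03. The median of the members was -0.47, against 0.04 over all tested genes.

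Here, too, single livers decide the count. It was 0 without sgBap1-Veh replicate 1 and 2 without sgBap1-Veh replicate 2. Without sgBap1-CCl4 replicate 2 it was 6, with Cd74, Ciita, H2-Aa, H2-Ab1, H2-Eb1 and H2-DMa lower, a median of -0.61, and H2-Ob at -0.72 (SE 0.29, adjusted p = 0.0591). Scaling by library size alone moved the median of all tested genes up by 0.48 in this comparison and by 0.47 in NTC mice, and under it 0 members passed in sgBap1 mice.

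With CCl4, 0 of the 10 members differed between sgBap1 and NTC livers by edgeR's test, beside 0.200% of all tested genes higher and 0.129% lower. No member had an unadjusted p under 0.05, and DESeq2's Wald test also called 0. The log2 fold changes lay between -0.35 for Ciita and 0.06 for H2-Oa, with a median of -0.23 against 0.00 over all tested genes. H2-Aa was at -0.30 (SE 0.17, adjusted p = 0.472) and Cd74 at -0.26 (SE 0.17, adjusted p = 0.522). Without sgBap1-CCl4 replicate 2 the median was -0.34 and the count was still 0.

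Whether the response to CCl4 differed by genotype was tested as an interaction. By edgeR, 0 members and 0% of all tested genes passed. Before adjustment, 9 of the 10 members had a p under 0.05, as had 1764 of the 17015 tested genes, and DESeq2's Wald test called 7 members and 406 genes. The interaction log2 fold change was -1.73 (SE 0.27, adjusted p = 0.0694) for H2-Aa, -1.61 (SE 0.27, adjusted p = 0.0694) for Cd74 and -1.60 (SE 0.25, adjusted p = 0.0694) for H2-Ab1. It was -1.53 (SE 0.26, adjusted p = 0.0694) for H2-Eb1, -1.49 (SE 0.24, adjusted p = 0.0694) for H2-DMa and -1.57 (SE 0.33, adjusted p = 0.106) for Ciita. The smallest adjusted p over all tested genes was 0.0694. Without sgBap1-CCl4 replicate 2, H2-Ab1 and H2-DMa passed. The pairwise comparisons and the interaction share livers, so their values are given side by side and not as separate support.

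**Figure D2:**
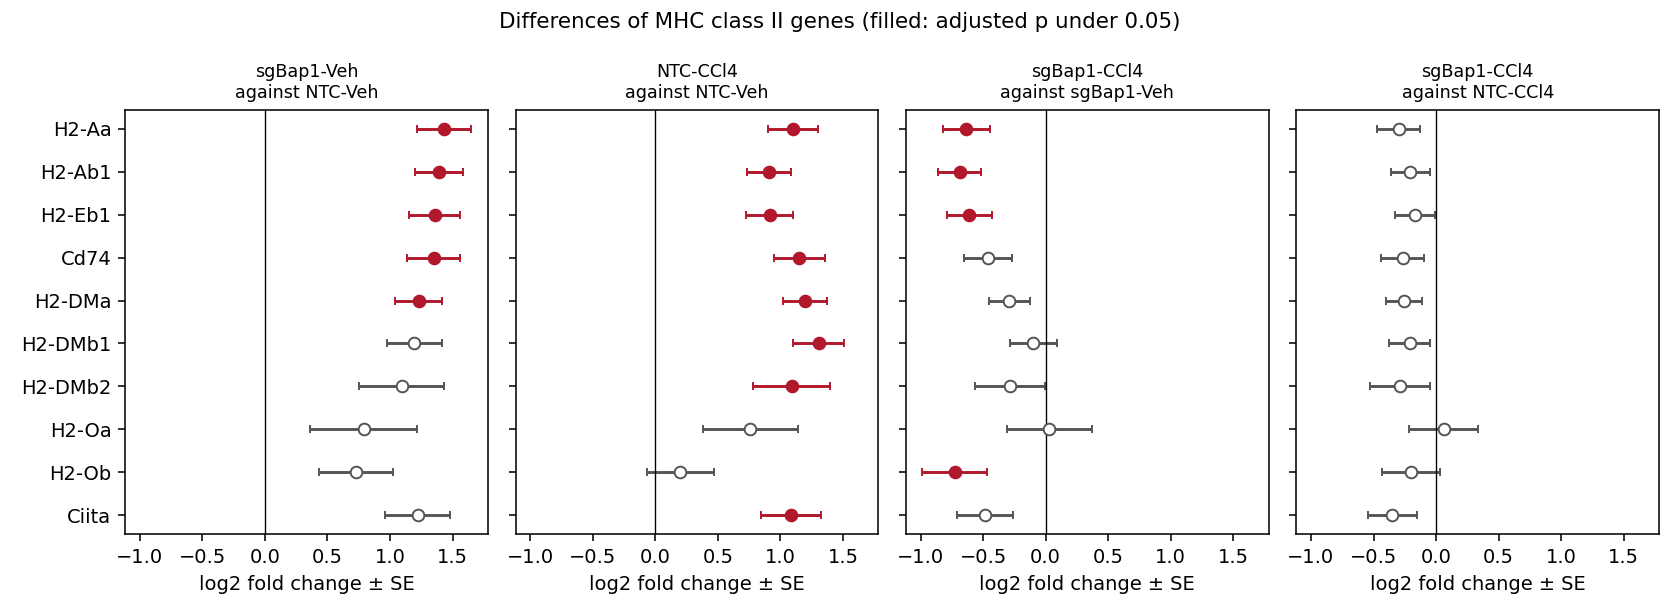
Log2 fold changes with standard errors of the 10 MHC class II genes in the pairwise comparisons. Filled points have an adjusted p under 0.05, of which there are 5, 8, 4 and 0 from left to right.

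Genes around the set were taken from lists of the pathway. Their counts after CCl4 stand beside 27.4% of all tested genes higher and 26.6% lower in NTC mice, and 29.0% higher and 28.0% lower in sgBap1 mice, so that a list with no tie to class II would also hold called genes. Where nothing is said of it, the counts of a list were the same without sgBap1-CCl4 replicate 2. Of the 7 factors that Ciita joins on the promoter (RFX, NF-Y and CREB subunits), 0 passed in vehicle-treated livers and the median log2 fold change was 0.07. Their summed level was 137 and 131 CPM in NTC-Veh, at 141 and 141 in sgBap1-Veh, and 124 to 134 in the CCl4 livers. In NTC mice, CCl4 raised Nfya by 0.45 (SE 0.10, adjusted p = 0.00359) and lowered Rfx5, at -0.46 (SE 0.15, adjusted p = 0.0259), and Nfyc, at -0.28 (SE 0.09, adjusted p = 0.0293). In sgBap1 mice 1 was higher and 2 were lower, and with CCl4 0 differed between genotypes.

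Of the 9 genes for endosomal processing, 1 was higher with vehicle, where 0.276% of all tested genes were: Ctss, the cathepsin S that trims the invariant chain, rose by 1.03 (SE 0.14, adjusted p = 0.0209), from a mean of 27.1 to 55.2 CPM. After CCl4, 6 were higher and 1 lower in NTC mice and 5 were higher and 1 lower in sgBap1 mice. Ctss rose by 2.42 (SE 0.14, adjusted p = 1.16e-06) and 1.4 (SE 0.13, adjusted p = 1.17e-05), and Lgmn, an asparagine-specific protease, by 2.19 (SE 0.18, adjusted p = 6.99e-06) and 1.63 (SE 0.18, adjusted p = 3.22e-05). Over the list, the median was 0.69 in NTC and 0.39 in sgBap1 mice, against 0.03 and 0.04 over all tested genes.

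Of the genes that turn class II over at the surface, 3 of 5 symbols were found and tested. Marchf1, a ligase that removes class II, and Cd83, which holds it there, passed in NTC mice after CCl4 at 1.68 (SE 0.25, adjusted p = 0.000292) and 1.49 (SE 0.31, adjusted p = 0.00227). Marchf8 was lower after CCl4 in both genotypes, at -0.71 (SE 0.10, adjusted p = 0.000256) and -0.82 (SE 0.10, adjusted p = 8.96e-05). With vehicle and between genotypes with CCl4, 0 of the 3 passed. A list of 6 genes that act with class II on T cells holds Cd80, Cd86, Cd40 and Icosl, which help activation, and Cd274 and Pdcd1lg2, ligands that hold T cells back. Of these, 0 passed with vehicle, 6 were higher after CCl4 in NTC mice and 2, Cd80 and Icosl, in sgBap1 mice. Among other class II loci, H2-Eb2 was tested and rose after CCl4 in NTC mice by 1.80 (SE 0.45, adjusted p = 0.0063) on 3 to 34 counts in a liver.

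MHC class I, which shows peptides from inside the cell, served as a comparison of 9 genes. With vehicle 0 of 9 passed, with a median of 0.31, where the class II median was 1.23. After CCl4 in NTC mice 3 were higher and 2 lower, with H2-K1 at -0.86 (SE 0.12, adjusted p = 0.000149) and Psmb8 at 0.56 (SE 0.10, adjusted p = 0.000708), and the shares are near those of all genes. In sgBap1 mice 0 were higher and 6 lower, with H2-K1 at -1.28 (SE 0.12, adjusted p = 1.15e-05) and Psmb9 at -1.07 (SE 0.12, adjusted p = 5.01e-05), where 28.0% of all tested genes were lower. Nlrc5 lost its call without sgBap1-CCl4 replicate 2, which left 5. With CCl4, Psmb8 at -0.55 (SE 0.08, adjusted p = 0.0347) and Tap2 at -0.46 (SE 0.08, adjusted p = 0.0445) were lower in sgBap1 livers, where 0.129% of all tested genes were lower, and 0 were lower without that replicate (adjusted p of 0.0831 and 0.105). In the interaction, 6 of the 9 had an unadjusted p under 0.05, as had 1764 of the 17015 tested genes. Of the 9, 0 passed, and their median was -0.47 against -0.02 over all tested genes.

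**Figure D3:**
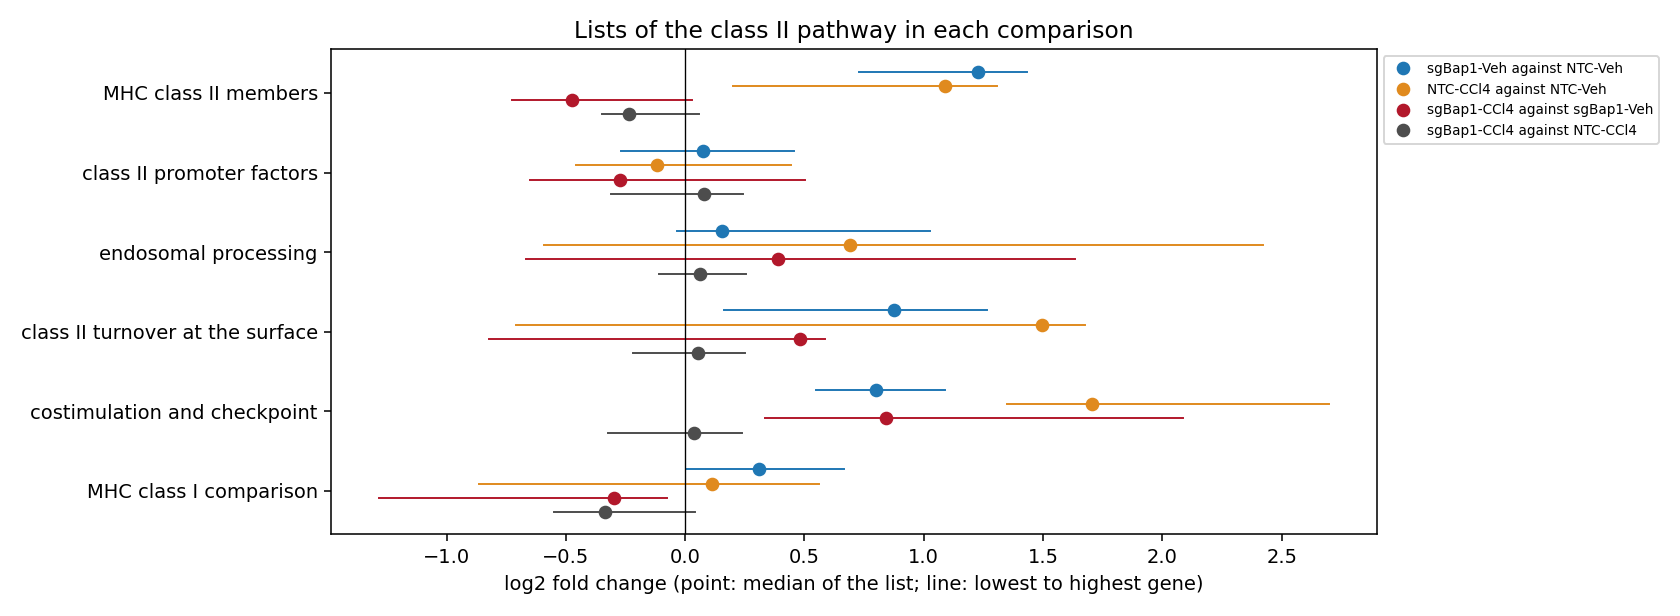
Median log2 fold change (points) and range from the lowest to the highest gene (lines) of the class II genes and of lists of their pathway, by comparison. The class II medians are 1.23, 1.09, -0.47 and -0.23, and those of MHC class I are 0.31, 0.11, -0.30 and -0.34.

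In bulk liver RNA, more or fewer cells of a type and more or less RNA in each cell cannot be told apart, so markers of cells that carry class II are given beside the set. For their counts after CCl4, too, the shares of all tested genes are 27.4% higher and 26.6% lower in NTC mice and 29.0% and 28.0% in sgBap1 mice. The summed level of the 10 members was 146 and 139 CPM in NTC-Veh, at 389 and 338 in sgBap1-Veh, 258, 265 and 375 in NTC-CCl4, and 210, 294 and 251 in sgBap1-CCl4. The 8 Kupffer cell markers, led by Cd5l, summed to 296 and 183 CPM in NTC-Veh, to 564 and 373 in sgBap1-Veh, 611, 467 and 904 in NTC-CCl4, and 451, 654 and 534 in sgBap1-CCl4. They too were higher in both sgBap1-Veh livers than in both NTC-Veh livers, and the liver with the highest sum among NTC-CCl4 was also the highest for class II. The sums of the dendritic cell, B cell, T cell and monocyte markers below went the same way in both respects. Of the Kupffer cell markers, 0 of 8 passed in the vehicle comparison and the median was 0.92, with C6 at 0.91 (SE 0.24, adjusted p = 0.142).

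After CCl4, 3 of the 8 Kupffer cell markers were higher in NTC mice, Adgre1 at 1.85 (SE 0.31, adjusted p = 0.00107), Marco at 4.08 (SE 0.72, adjusted p = 0.00195) and Cd5l at 1.54 (SE 0.32, adjusted p = 0.00298), and 0 were lower. The median was 0.60. Marco carried much of the rise in the summed level, from a mean of 14.9 to 251 CPM in NTC livers. In sgBap1 livers Marco went from 27.8 to 189 CPM, while the mean sum of all 8 went from 468 to 546 CPM. In sgBap1 mice Marco was higher and 4 were lower, among them Clec4f at -1.29 (SE 0.24, adjusted p = 0.00155) and C6 at -1.18 (SE 0.22, adjusted p = 0.00105), with a median of -0.84. Timd4 and Cd163 lost their calls without sgBap1-CCl4 replicate 2, which left 2. The share higher in NTC mice and, without that replicate, the share lower in sgBap1 mice are near those of all tested genes.

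The 10 dendritic cell markers, led by Irf8, summed to 22.3 and 23.4 CPM in NTC-Veh, to 38.5 and 32.3 in sgBap1-Veh, 53.7, 53.8 and 64.4 in NTC-CCl4, and 52.9, 62.4 and 55.5 in sgBap1-CCl4. With vehicle 1 of 10 passed, beside 0.276% of all tested genes that were higher, with Irf8 at 0.95 (SE 0.16, adjusted p = 0.0418) and a median of 0.95. The sum was higher in every CCl4 liver than in every vehicle liver, and in sgBap1 mice Itgax, from a mean of 2.68 to 17.1 CPM, and Irf8, from 12.8 to 22.1 CPM, made up this rise. A split chosen after seeing the data left these out, so that a flatter sum was largely set by the choice. The other 8 markers then summed to 20.5 and 19.3 CPM in sgBap1-Veh and 17, 19.3 and 17.1 CPM in sgBap1-CCl4. In NTC livers they summed to 13.9 and 15 CPM with vehicle and 17.7, 18.2 and 19.7 CPM with CCl4. Among them, Siglech rose in sgBap1 mice from a mean of 0.824 to 2.02 CPM. In NTC mice 6 markers rose after CCl4. In sgBap1 mice 4 rose, among them Itgax at 2.64 (SE 0.25, adjusted p = 1.6e-05), and 3 fell, among them Zbtb46 at -0.43 (SE 0.13, adjusted p = 0.0132). Flt3 lost its call without sgBap1-CCl4 replicate 2, so that 3 rose and 3 fell.

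The 8 B cell markers, led by Cd22, summed to 12.6 and 5.68 CPM in NTC-Veh, to 18.1 and 14.2 in sgBap1-Veh, 18.2, 15.4 and 20.9 in NTC-CCl4, and 15.6, 15 and 14.5 in sgBap1-CCl4. In the vehicle comparison 0 of 8 passed, with a median of 0.93, and after CCl4 4 were higher in NTC mice and 0 were higher or lower in sgBap1 mice, where Blk was lower without sgBap1-CCl4 replicate 2. The 8 T cell markers, led by Lck, summed to 6.86 and 2.60 CPM in NTC-Veh, to 11.2 and 9.92 in sgBap1-Veh, and 6.37 to 13.7 in the CCl4 livers, with 0 of 8 passing with vehicle and a median of 1.21. After CCl4, 3 T cell markers were higher and 0 lower in NTC mice, with a median of 0.72, and 0 passed in sgBap1 mice, with a median of -0.42. Both lists were lowest in an NTC-Veh liver and higher in the sgBap1-Veh livers.

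The 8 markers of monocytes and recruited macrophages, led by Cd68, summed to 16.4 and 14.9 CPM in NTC-Veh, to 29.9 and 23.2 in sgBap1-Veh, and 247 to 372 in the CCl4 livers. All 8 rose after CCl4 in both genotypes, with medians of 4.06 and 3.65, and 0 passed between genotypes under either treatment. Scaled by TMM, the mean class II sum in NTC livers was 142 CPM with vehicle and 299 CPM with CCl4. In sgBap1 livers it was 364 and 252 CPM. With library size scaling, the members' median log2 fold change in sgBap1 mice was 0.0131, against -0.47 in the main fit. The 8 sinusoidal endothelial markers, led by Fcgr2b, summed to 210 to 308 CPM over all livers with 0 of 8 passing with vehicle. After CCl4, 5 of them were higher and 0 lower in NTC mice, with a median of 0.50, and 2 were higher and 2 lower in sgBap1 mice, with a median of 0.06, where without sgBap1-CCl4 replicate 2 the calls of Clec4g and Kdr were lost. The 8 hepatocyte markers, led by Alb, summed to 155780 and 124702 CPM in NTC-Veh and 113460 and 117500 in sgBap1-Veh, and 0 passed there. After CCl4, 7 of them fell in NTC mice and 4 in sgBap1 mice. In the interaction 0 markers of any list passed. Before adjustment, 1764 of the 17015 tested genes had a p under 0.05, and the median log2 fold change over all tested genes was -0.02. Such a p was found for 9 of 10 members (median -1.51), 7 of 8 B cell markers (-1.13) and 6 of 8 Kupffer cell markers (-1.24). It was found for 4 of 8 T cell markers (-1.33), 4 of 10 dendritic cell markers (-0.94) and 3 of 8 monocyte markers (-0.35). For sinusoidal markers it was 2 of 8 (-0.40) and for hepatocyte markers 0 of 8 (0.29). The median was thus negative for each of these lists but that of hepatocytes. None of the 8 lists had a marker at 0 in all livers, and the part of these cells in the class II values was not tested.

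**Figure D4:**
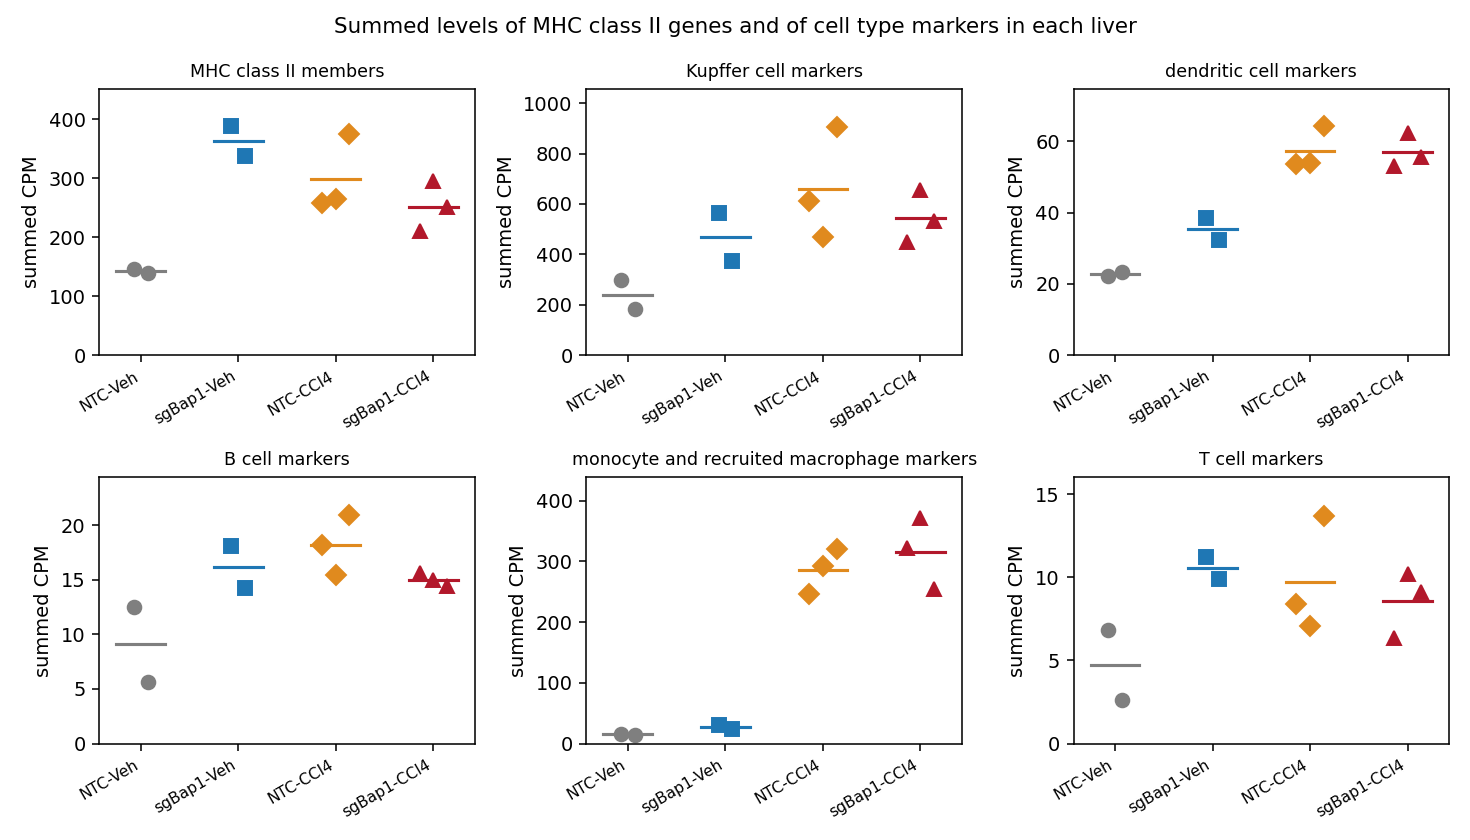
Summed CPM of the class II genes and of markers of cell types in each liver, on linear axes from 0. Points are livers and lines are group means. Every sum shown is higher in both sgBap1-Veh livers than in both NTC-Veh livers, and the monocyte sum is at most 29.9 CPM with vehicle and at least 247 CPM with CCl4.

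Likeness among the members was measured over the 10 livers by Pearson's r of log2 CPM with the mean of H2-Aa, H2-Ab1, H2-Eb1 and Cd74, leaving the member itself out. It was 0.98 to 1.00 for these 4, 0.95 for H2-DMa, 0.93 for Ciita and 0.90 for H2-DMb1. H2-DMb2, at 0.76, H2-Oa, at 0.60, and H2-Ob, at 0.58, followed them less. Of the deviations from the group means, r was 0.91 for H2-DMa, 0.66 for Ciita, 0.10 for H2-Oa and -0.00182 for H2-Ob.

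Among 12020 other tested genes whose mean count reached 100, the 10 most like the mean of these 4 were Gbp5 (Pearson r = 0.934, Spearman rho = 0.842), Ptgs1 (0.931 and 0.891), Mrc1 (0.930 and 0.867), P2ry13 (0.928 and 0.855), Folr2 (0.901 and 0.903), Fpr1 (0.895 and 0.939), Cxcl9 (0.883 and 0.830), Klra2 (0.880 and 0.709), Tgtp2 (0.876 and 0.855) and Cdc42ep1 (0.871 and 0.806), over 10 livers that share their groups and scaling. Within groups, r of the deviations was 0.89 for Folr2 and P2ry13 but 0.19 for Klra2. With vehicle, Klra2 passed, at 1.45 (SE 0.25, adjusted p = 0.0438), where 0.276% of all tested genes were higher. After CCl4 in NTC mice 8 of the 10 were higher, where 27.4% of all tested genes were. These genes were picked for their likeness to class II over the same livers, so the direction of their calls was largely set by the choice. In sgBap1 mice 3 were lower after CCl4, a share near the 28.0% of all tested genes that were lower. They were Tgtp2 at -0.94 (SE 0.25, adjusted p = 0.00892), Cxcl9 at -1.22 (SE 0.36, adjusted p = 0.0193) and Gbp5 at -0.63 (SE 0.22, adjusted p = 0.0329). Of these, Tgtp2 kept its call without sgBap1-CCl4 replicate 2 and Cxcl9 and Gbp5 lost theirs, while Fpr1 came to pass there and Tgtp2 with vehicle.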

How the data were processed

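RNA from the right liver lobe of 10 mice was measured with a stranded mRNA kit. The submitters' processing notes name STAR 2.7.6a, Salmon 1.4.0 and GRCm38, and the deposited table holds the estimated counts (expected counts) per gene symbol that the authors obtained, without normalization. Columns were matched to livers by the library names in the labels. Estimated counts were rounded, genes were filtered by filterByExpr with the 4 groups, and libraries were scaled by TMM in R 4.3.3 with edgeR 4.0.16. A model of the 4 group means was fitted with glmQLFit (robust, legacy = FALSE) and contrasts were tested on both sides with glmQLFTest. The p-values of a comparison were adjusted by Benjamini and Hochberg's method across every gene tested in it, and 0.05 was the threshold. CPM are scaled by TMM, and log2 CPM have a pseudocount of 2. SE is the absolute log2 fold change divided by the square root of F. The steps were tested on simulated data.

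The members and lists were chosen with earlier results of these data known, so no test was run over a list. All members are named. A list of signalling genes upstream of Ciita is not reported here. Tested genes named from a list are among the 5 with the smallest adjusted p for that comparison, besides the most abundant gene and those whose call was lost or gained without a liver. The genes of most similar pattern were the 10 with the highest Pearson r, among tested genes whose mean count reached 100. Alternatives were DESeq2 1.42.0 (size factors and Wald test), library size scaling, no filter, a mean of at least 10 counts, a replicate block, the method of edgeR 3, only the groups compared and each liver left out. Gene models, levels per kb and shared stretches of 50 bases are from GENCODE vM21, while the authors' counts were made on GENCODE vM25, so both rest on another release than the counts. Replicates of a group differed beyond counting noise in each pair (mean chi-square of 15.5 to 90.6 per gene, with 1 degree of freedom), so none was counted as a duplicate. RefSeq proteins were not used here.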

Additional observations from a re-analysis of the deposited data

Results flagged for a closer look

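For 5 members the CCl4 and vehicle livers did not overlap in either genotype, and lay in opposite order: every NTC-CCl4 liver lay above every NTC-Veh liver and every sgBap1-CCl4 liver below every sgBap1-Veh liver. Of all 17015 tested genes, 90, or 0.529%, did so in this order, and 173, or 1.02%, in either order. In sgBap1 mice the differences of Cd74 and Ciita did not pass the test. The levels compared here are scaled by TMM, and with library size scaling none of the 5 differences in sgBap1 mice passed. They were then -0.15 for H2-Aa, -0.20 for H2-Ab1, -0.12 for H2-Eb1, 0.0248 for Cd74 and 0.0013 for Ciita. The difference between genotypes was tested as an interaction, which no member passed by edgeR. Its log2 fold change was -1.61 for Cd74, -1.57 for Ciita, -1.73 for H2-Aa, -1.60 for H2-Ab1 and -1.53 for H2-Eb1, with adjusted p from 0.0694 to 0.106.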

How the results depend on the processing

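The count of members changed was within 1.5 times the main count under every alternative for NTC-CCl4 against NTC-Veh (8 to 10) and for sgBap1-CCl4 against NTC-CCl4 (0). For sgBap1-Veh against NTC-Veh, where 5 passed, it was 0 with library size scaling and 0 to 6 with each liver left out. A vehicle group left with 1 liver was taken to vary like the others. For sgBap1-CCl4 against sgBap1-Veh, where 4 passed, it was 0 with library size scaling and 0 to 6 with each liver left out. For the interaction, where 0 passed, it was 2 with no filter, 7 with DESeq2's Wald test and 0 to 2 with each liver left out. The cause of these changes was not tested.

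With the replicate block, 0 members and 1 gene passed in sgBap1-Veh against NTC-Veh, against 5 and 69 without it, and it changed the count of members in no other comparison. In sgBap1-CCl4 against sgBap1-Veh the 4 were not the same: Cd74 passed (-0.56, adjusted p = 0.0349) and H2-Ob, at -0.68, did not. The deviations from the group means of livers with the same replicate number had correlations of -0.15 to 0.10. Livers of other groups with different numbers had correlations of -0.157 to 0.157. Within a vehicle group the deviations of the livers mirror each other, so their correlations with any other liver differ only in sign. These correlations therefore cannot decide whether the replicate numbers pair the livers.

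All tested genes changed with vehicle numbered 69, against 551 by DESeq2's Wald test, 32 with library size scaling, 27 with only the groups compared and 0 to 150 with each liver left out. Between genotypes with CCl4 they numbered 56, against 480 by DESeq2, 94 with no filter, 28 with only the groups compared, 24 with the replicate block and 1 to 71 with each liver left out. For the interaction they numbered 0, against 406, 34 with no filter, 2 with library size scaling and 0 to 7. In NTC-CCl4 against NTC-Veh, library size scaling moved the split from 4659 higher and 4519 lower to 8500 and 2061, and in sgBap1 mice from 4942 and 4758 to 8614 and 2388.

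H2-DMb1 passed with vehicle by the edgeR 3 method (6 members in all) and with no filter, and it did not in the main test. Of 895 refits of single members, 11 changed sign, none of a called value. With library size scaling, sgBap1-CCl4 against sgBap1-Veh was -0.15 for H2-Aa, -0.20 for H2-Ab1, -0.12 for H2-Eb1 and -0.25 for H2-Ob, which had passed, 0.0248 for Cd74, 0.0013 for Ciita, 0.20 for H2-DMa, 0.39 for H2-DMb1 and 0.18 for H2-DMb2. With each liver left out, the sign changed in that comparison for H2-DMb1 (-0.21 to 0.0069), H2-DMb2 (-0.62 to 0.24), H2-Oa (-0.25 to 0.50) and Bap1 (-0.0361 to 0.147), in NTC-CCl4 against NTC-Veh for H2-Ob (-0.23 to 0.83), and in sgBap1-CCl4 against NTC-CCl4 for H2-Eb1 (-0.33 to 0.0088). Bap1 in NTC-CCl4 against NTC-Veh was 0.28 with library size scaling. Of the 10 genes of most similar pattern, 6 were also among the 10 by Spearman's rho and 0 by deviations from the group means. Depth limits H2-Oa and H2-Eb2, with 39 counts or fewer in a liver. It also limits Pdcd1lg2, with a mean of 1.5 counts in NTC-Veh and 13 in NTC-CCl4. In NTC-Veh replicate 2 the 8 T cell markers together had 94 counts and the 8 B cell markers 205, so their vehicle medians rest on few counts.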
